A study of Homo sapiens with 72 samples.

Results

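The 35 genes described here encode the folding and quality control machinery of the endoplasmic reticulum. They were found by symbol among the 23170 genes of the count table, and all 35 had a row. RNA was counted by DRUG-seq, in which barcodes mark the wells and only the 3′ end of each polyadenylated transcript is sequenced, in wildtype normal human dermal fibroblasts, primary skin cells grown in a 384-well plate. Cells were held for 24 hours with omaveloxolone, a synthetic triterpenoid that binds KEAP1 and activates the transcription factor NRF2, or with the solvent DMSO. The 72 wells were 4 wells at each of 10 doses (0.0005, 0.002, 0.005, 0.014, 0.04, 0.12, 0.37, 1.11, 3.33 and 10 µM) and 32 DMSO wells. The labels call each well a biological replicate but name no separate cultures or donors, so p-values measure the spread between wells, which may be technical in part.

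Secretory and membrane proteins enter the endoplasmic reticulum through the translocon, fold with the help of chaperones, lectins and disulfide isomerases, and are handed to the proteasome when they fail to fold. When unfolded proteins accumulate, the sensors IRE1, PERK and ATF6 start the unfolded protein response. IRE1 splices the mRNA of XBP1 into a form that encodes an active transcription factor, and ATF6 and XBP1 raise the genes of chaperones and of degradation through promoter elements named ERSE, ERSE-II and UPRE. Fibroblasts secrete much collagen, which needs this machinery.

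The promoter elements are shown first. Of the members given well by well below, HSPA5, HSP90B1, CALR, HERPUD1, XBP1, HYOU1, CRELD2 and PDIA6 carry ERSE or ERSE-II. Stretches of HYOU1, CRELD2 and PDIA6 are not shown. ERSE was searched as CCAAT and CCACG with 9 bases between, ERSE-II as ATTGG and CCACG with 1 base between, and the UPRE core as TGACGTGG, on both strands of the RefSeq promoter table (GRCh38.p14, 250 bases before to 50 after each start). Of 35116 promoters, 27 (0.0769%) held ERSE, 19 (0.0541%) held ERSE-II and 256 (0.729%) held the UPRE core. Among the 32 members with an entry, some of them with several starts, 7 held ERSE (HSPA5, HSP90B1, CALR, CANX, CRELD2, PDIA6 and XBP1), 3 held ERSE-II (HERPUD1, HYOU1 and SDF2L1) and 4 held the UPRE core (HYOU1, DNAJC10, SSR3 and TXNDC5). In HYOU1 the UPRE core shares its last 5 bases with the first ERSE-II. A match is a description of letters, and these lists were drawn up with the role of such elements known. The whole HSPA5 promoter is followed by the stretches around the matches, each written 5′ to 3′ on the gene's strand with the matched letters in capitals. The SSR3 match belongs to the innermost of 3 starts in the table, inside the gene, and the windows of the other 2 held none of the motifs. XBP1 has 2 starts, and the match lies at the outer one.
HSPA5 promoter, chr9:125241294-125241593, minus strand: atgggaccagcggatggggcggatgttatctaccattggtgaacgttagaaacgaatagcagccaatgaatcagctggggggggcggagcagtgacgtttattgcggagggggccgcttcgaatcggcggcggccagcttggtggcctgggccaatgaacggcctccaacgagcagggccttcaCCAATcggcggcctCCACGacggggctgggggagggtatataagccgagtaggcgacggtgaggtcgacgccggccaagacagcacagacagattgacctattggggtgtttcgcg
HSP90B1, chr12:103930206-103930349, plus strand: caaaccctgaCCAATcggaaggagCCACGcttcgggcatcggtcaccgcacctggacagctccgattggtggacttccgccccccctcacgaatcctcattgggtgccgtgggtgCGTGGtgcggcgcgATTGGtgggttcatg
CALR, chr19:12938374-12938412, plus strand: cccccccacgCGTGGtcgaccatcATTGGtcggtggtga
XBP1, chr22:28800593-28800631, minus strand: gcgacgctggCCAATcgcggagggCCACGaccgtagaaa
HERPUD1, chr16:56932015-56932045, plus strand: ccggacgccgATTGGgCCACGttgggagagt
SSR3, chr3:156554149-156554176, minus strand: ctgataacagCCACGTCAgcaaggaaac

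Total counts per well ran from 4173793 to 10386621 at doses up to 0.37 µM and from 4910790 to 8685413 in DMSO. At 1.11, 3.33 and 10 µM they ran from 1432727 to 1709977, from 132317 to 208739 and from 25635 to 39396. Levels are given as CPM after TMM scaling, so they are shares of the RNA read from a well, and fewer cells or less RNA per cell cannot be told apart. All 10 fibroblast markers were counted, with a summed level of 60900 to 63700 CPM in the wells at 0.12 µM, 33800 to 38000 CPM in those at 0.37 µM and 67500 to 80000 CPM in those at 1.11 µM, against 67600 to 82000 CPM in DMSO. Of the other markers counted in DMSO, the 3 of melanocytes summed to at most 3.02 CPM, the 4 of endothelium to at most 5.36 CPM with KDR at 0, the 3 of immune cells to 90.4 to 182 CPM, and the 3 of keratinocytes, without KRT1, KRT5 and KRT14, to 344 to 587 CPM.

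Omaveloxolone was given in rows K and L of the plate, with 2 wells of each dose in columns 3 to 12 and 2 in columns 13 to 22, and DMSO wells filled columns 2 and 23, 16 in each. The dose rose as the column number fell, so that the wells at 0.0005 µM lay in columns 12 and 22, those at 0.12 µM in columns 7 and 17 and those at 1.11 µM in columns 5 and 15. Dose and column therefore cannot be wholly told apart, and the difference between the DMSO columns is set beside the dose effects. Of the 35 members, 34 passed the filter on low counts and were tested among 14259 genes. TXNDC5, a disulfide isomerase, did not pass, with at most 1.26 CPM in any DMSO well and counts in 1 treated well each at 0.002, 0.04 and 1.11 µM. A readthrough transcript with BLOC1S5 overlaps it, so its counts are uncertain.

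The calls were mostly of lower levels at 0.12 µM, split at 0.37 µM and all of higher levels at 1.11 µM. At 0.12 µM the chaperones HSPA5, HSP90B1 and CALR and the isomerase PDIA3 fell, HSPA5 by 1.84 on the log2 scale, and SSR3 rose. At 0.37 µM the genes parted, with DNAJB9, SSR3, HYOU1, XBP1, HERPUD1, HSPA5 and SEC61B higher than in DMSO and CALR, CRELD2, EDEM2, OS9 and 3 disulfide isomerases lower. At 1.11 µM 18 members rose and 0 fell. A gene is called higher or lower where its adjusted p was under 0.05 by edgeR's quasi-likelihood test with Benjamini-Hochberg adjustment over all genes tested, with all 72 wells in the fit.

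From 0.0005 to 0.014 µM, 0 of 34 members were called in either direction by edgeR or by DESeq2. At an unadjusted p under 0.05, 0, 0, 0 and 0 were higher and 0, 1, 0 and 4 were lower at these 4 doses. Of all genes tested, 0.00701%, 0.0561%, 0.0631% and 0.203% were called higher and 0%, 0%, 0.014% and 0.014% lower. At 0.04 µM 1 member was called lower, where 0.189% of all genes were, and 0 higher, where 0.603% of all genes were (0 at an unadjusted p under 0.05, and 0 by DESeq2). At 0.12 µM 4 members were lower and 1 was higher, against 1.02% and 1.31% of all genes. At 0.37 µM 7 were higher and 7 lower, against 11.2% and 13.6% of all genes. The 18 called higher at 1.11 µM were 52.9% of those tested, against 9.77% of all genes. The 0 called lower there (1 at an unadjusted p under 0.05, 0 by DESeq2) stood beside 13.2% of all genes. The counts by role and by list below are to be read beside these shares of all genes at the same dose.

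**Figure D1:**
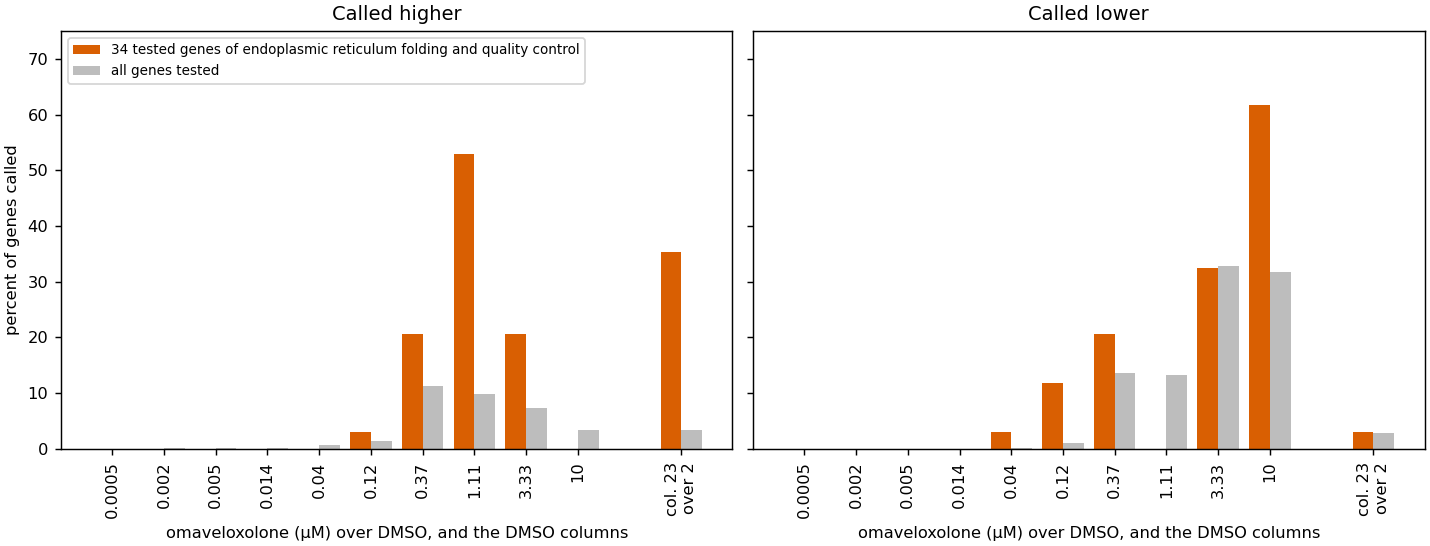
Percent of genes called higher (left panel) and lower (right panel) than DMSO at each dose in µM, and in DMSO wells of plate column 23 over column 2. Orange bars are the 34 tested members and grey bars all genes tested, and the orange bar for higher genes reaches 52.9% at 1.11 µM and 35.3% between the DMSO columns.

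The median log2 change of the 34 members was -0.03, -0.08, -0.10, -0.19, -0.27 and -0.37 at the doses from 0.0005 to 0.12 µM, and 0.08 and 0.82 at 0.37 and 1.11 µM. The median of all genes tested was -0.07, -0.14 and -0.20 at 0.12, 0.37 and 1.11 µM. The summed level of the members was 3880 ± 562, 5600 ± 454 and 8450 ± 440 CPM at 0.12, 0.37 and 1.11 µM (mean ± SD, n = 4 each), against 4770 ± 553 CPM in DMSO (n = 32). At 1.11 µM the lowest well, 7930 CPM, lay above the highest DMSO well, 5810 CPM. Over DMSO and the 8 doses up to 1.11 µM, 26 of the 34 members had their highest mean at 1.11 µM and 7 at 0.37 µM, and 13 had their lowest mean at 0.12 µM and 7 at 0.37 µM. Of the 10 fibroblast markers 1 fell at 0.12 µM and all 10 fell at 0.37 µM, with a median log2 change of -2.17 there, while 4 rose and 3 fell at 1.11 µM. Immune markers, at 205 to 408 CPM at 1.11 µM, lay above their DMSO range, and CD68 made up that level, with PTPRC and LYZ at 0 in all 4 wells. Keratinocyte markers read 300 to 354 CPM at 1.11 µM, nearly all of it KRT10 at 294 to 351 CPM, against 325 to 570 CPM of KRT10 in DMSO, with CDH1 at 0 in the 4 wells. The part of these markers in the members' changes was not tested.

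Scaling matters at 0.37 µM. Under the size factors of DESeq2 instead of TMM, the log2 change of the median gene was 0.25 higher, 10 members were higher and 4 lower, and the share of higher genes among all called was 63.3% against 45.1% with TMM. Relative to the median of all genes, the members' median was 0.22 with either scaling. The signs of DNAJB11, EDEM1, HSP90B1, P4HB and SSR1, which were uncalled and had log2 changes from -0.19 to -0.02, turned with that shift. Calls also depended on the DMSO wells used. When the 4 DMSO wells that share rows K and L with the treated wells were the only ones kept, 0 members were lower and 0 higher at 0.12 µM, 3 higher and 0 lower at 0.37 µM and 7 higher at 1.11 µM. Against those 4 wells the log2 changes at 0.12 µM kept their direction, at -1.58 for HSPA5 (adjusted p = 0.133), -0.97 for CALR (0.069), -0.85 for HSP90B1 (0.692), -0.66 for PDIA3 (0.63) and 0.69 for SSR3 (0.61).

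Of the 3 HSP70 and HSP90 chaperones of the lumen, 2 fell at 0.12 µM, 2 rose at 0.37 µM and 2 rose at 1.11 µM. HSPA5 (chr9:125234853-125241330, also known as BiP) is the HSP70 chaperone that binds unfolded chains and holds the stress sensors inactive. It read 73.9, 56, 77.2 and 24.9 CPM in the 4 wells at 0.12 µM, 213, 593, 285 and 316 CPM at 0.37 µM and 756, 583, 687 and 611 CPM at 1.11 µM, against 145 to 315 CPM in DMSO with a median of 200 CPM. All 4 wells at 0.12 µM lay below the DMSO range, 2 of 4 at 0.37 µM and all 4 at 1.11 µM above it. Its log2 change was -1.84 ± 0.30 at 0.12 µM (SE, adjusted p = 1.01e-05), 0.76 ± 0.24 at 0.37 µM (adjusted p = 0.0122) and 1.67 ± 0.22 at 1.11 µM (adjusted p = 1.13e-08). At the 4 lowest doses 1, 2, 3 and 2 of 4 HSPA5 wells lay below the DMSO range, with no call. At 0.04 µM all 4 wells, at 86.3 to 145 CPM, lay at or below the lowest DMSO well, with a log2 change of -0.90 ± 0.28 that was not called (adjusted p = 0.142). The rise at 0.37 µM rested on replicate 2, without which the log2 change was 0.39 (adjusted p = 0.354), and against DMSO column 23 alone it was 0.56 (adjusted p = 0.151).

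HSP90B1 (chr12:103930107-103953645), the HSP90 of the lumen, read 298, 149, 371 and 218 CPM at 0.12 µM, 391, 552, 488 and 406 CPM at 0.37 µM and 773, 765, 888 and 631 CPM at 1.11 µM, against 281 to 752 CPM in DMSO with a median of 522 CPM. At 0.12 µM 2 of 4 wells lay below the DMSO range, and at 1.11 µM 3 of 4 lay above it. It fell by 1.0 ± 0.24 on the log2 scale at 0.12 µM (adjusted p = 0.00715). Without replicate 2 or 4 the adjusted p was 0.144 or 0.0656, and against DMSO column 2 alone 0.194. The log2 change was -0.18 ± 0.23 at 0.37 µM (adjusted p = 0.622) and 0.56 ± 0.21 at 1.11 µM, where the call (adjusted p = 0.0479) was lost without any 1 of the 4 wells (adjusted p from 0.0551 to 0.18), with no filter (0.088), by DESeq2 (0.0524) and against DMSO column 23 alone (0.344). HYOU1, a large HSP70-like protein that exchanges the nucleotide of HSPA5, read 22, 20.6, 16.5 and 13.6 CPM at 0.12 µM, 36, 80.2, 44.3 and 47.1 CPM at 0.37 µM and 10.8, 31.3, 54.7 and 40.1 CPM at 1.11 µM, against 9.66 to 56.6 CPM in DMSO with a median of 24.3 CPM. These wells overlapped the DMSO range apart from 1 well at 0.37 µM. Its log2 change was 0.99 ± 0.34 at 0.37 µM (adjusted p = 0.0222), a call lost without replicate 2 (0.70, adjusted p = 0.22) and against DMSO column 23 alone (0.78, adjusted p = 0.131).

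**Figure D2:**
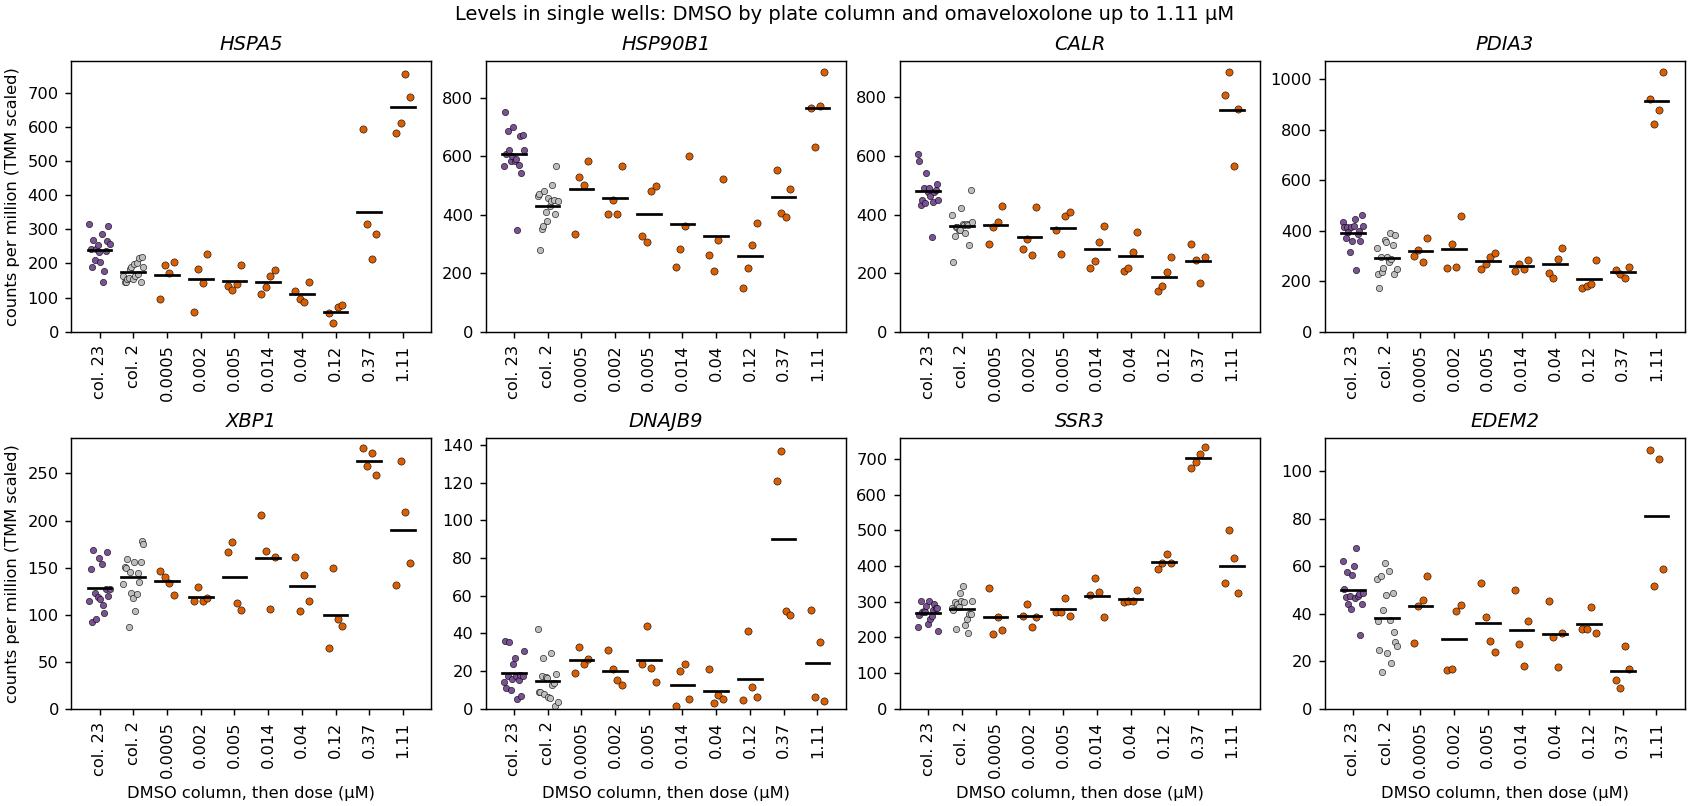
Levels of 8 members in single wells, in TMM-scaled CPM, with DMSO wells of plate columns 23 and 2 followed by the doses from 0.0005 to 1.11 µM. Points are wells and bars are means; HSPA5 lies at 24.9 to 77.2 CPM at 0.12 µM and at 583 to 756 CPM at 1.11 µM, and XBP1, DNAJB9 and SSR3 have their highest mean at 0.37 µM.

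J-domain co-chaperones bring clients to HSPA5 and stimulate its ATPase, and 1 of 4 rose at 0.37 µM and another at 1.11 µM. DNAJB9 (chr7:108569568-108574850), which also represses IRE1 together with HSPA5, read 11.6, 4.51, 6.31 and 41.3 CPM at 0.12 µM, 51.7, 121, 50 and 137 CPM at 0.37 µM and 35.6, 52.2, 4.21 and 6.12 CPM at 1.11 µM, against 1.7 to 42.2 CPM in DMSO with a median of 16 CPM. All 4 wells at 0.37 µM lay above the DMSO range, and those at 0.12 µM lay within it, as did 3 of 4 at 1.11 µM. Its rise of 2.42 ± 0.41 on the log2 scale at 0.37 µM (adjusted p = 2.79e-06) was the largest among the 34 members at that dose, and the change at 1.11 µM was 0.55 ± 0.51 (adjusted p = 0.448). At 0.37 µM the wells of column 6 read 121 and 137 CPM and those of column 16 51.7 and 50 CPM. With replicate number as a block and 4 DMSO wells, all from rows A and B, the log2 change there was 1.90, and the call was lost (adjusted p = 0.113). DNAJB11, an abundant soluble co-chaperone, read 17.2, 24.6, 19.3 and 19.7 CPM at 0.12 µM, 17.7, 34.5, 20.3 and 20.7 CPM at 0.37 µM and 37.1, 103, 143 and 99.9 CPM at 1.11 µM, against 7.44 to 64.4 CPM in DMSO with a median of 25.1 CPM. Of these doses only 1.11 µM had wells, 3 of 4, above the DMSO range, with a log2 change of 1.87 ± 0.32 (adjusted p = 4.25e-06). DNAJC3, which also inhibits the kinase PERK, and DNAJC10, a disulfide reductase that serves degradation, were not called at 0.12, 0.37 or 1.11 µM, with log2 changes from -0.42 to 0.75.

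Small stress-induced proteins of the lumen were lower on average at 0.12 µM without a call. MANF, which binds HSPA5 and is secreted under stress, read 37.3, 30.5, 37.1 and 28.8 CPM at 0.12 µM, 51.3, 50.7, 83 and 89.3 CPM at 0.37 µM and 42.5, 89.5, 48.8 and 63.9 CPM at 1.11 µM, against 20.1 to 90.4 CPM in DMSO with a median of 57.5 CPM. All these wells lay within the DMSO range, and the log2 change at 0.12 µM was -0.80 ± 0.26 (adjusted p = 0.0845). CRELD2, an isomerase-like protein with EGF repeats, read 34.8, 23.4, 47.3 and 25.3 CPM at 0.12 µM, 18.4, 24.4, 25.6 and 29.6 CPM at 0.37 µM and 71.1, 102, 92.5 and 118 CPM at 1.11 µM, against 27.5 to 75.8 CPM in DMSO with a median of 49.7 CPM. At 0.37 µM 3 of 4 wells lay below the DMSO range and at 1.11 µM 3 of 4 above it. CRELD2 changed by -1.05 ± 0.32 at 0.37 µM on the log2 scale (adjusted p = 0.0105) and 0.92 ± 0.28 at 1.11 µM (adjusted p = 0.011). The fall was lost without replicate 1 (adjusted p = 0.0621), with size factors (0.0551) and against DMSO column 2 alone (0.0623), and the rise without replicate 4 (0.0712) and against DMSO column 23 alone (0.0657). SDF2L1, which works with DNAJB11 in holding clients, had log2 changes of -0.55, 0.12 and 0.53 at the 3 doses, none of them called.

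Of the 5 tested disulfide and proline isomerases, 3 fell at 0.37 µM and 3 rose at 1.11 µM. PDIA3 (chr15:43746392-43773279) makes disulfide bonds in glycoproteins held by CALR and CANX. It read 191, 173, 286 and 183 CPM at 0.12 µM, 214, 244, 255 and 228 CPM at 0.37 µM and 880, 923, 1030 and 823 CPM at 1.11 µM, against 174 to 461 CPM in DMSO with a median of 359 CPM. Wells at 1.11 µM stood apart from every DMSO well, while those at the lower doses overlapped the low end of the DMSO range. PDIA3 changed by -0.72 ± 0.19 on the log2 scale at 0.12 µM (adjusted p = 0.0132), -0.54 ± 0.18 at 0.37 µM (adjusted p = 0.0199) and 1.41 ± 0.15 at 1.11 µM (adjusted p = 9.76e-12). Both falls were lost without replicate 1, 2 or 4 (adjusted p from 0.0882 to 0.135 at 0.12 µM and from 0.052 to 0.0827 at 0.37 µM) and against DMSO column 2 alone (0.295 and 0.259), and that at 0.37 µM also with size factors (0.254) and by DESeq2 (0.218).

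P4HB, protein disulfide isomerase and a subunit of the collagen prolyl hydroxylase, read 237, 219, 248 and 207 CPM at 0.12 µM, 205, 305, 250 and 303 CPM at 0.37 µM and 698, 739, 904 and 695 CPM at 1.11 µM, against 191 to 368 CPM in DMSO with a median of 281 CPM. Its rise at 1.11 µM was 1.43 ± 0.13 on the log2 scale (adjusted p = 5.44e-15), with all 4 wells above the DMSO range. PDIA6, which acts on clients of HSPA5 and on the stress sensors, read 91.2, 38.6, 110 and 55.1 CPM at 0.12 µM, 23.7, 49.1, 27.7 and 32.1 CPM at 0.37 µM and 161, 103, 240 and 124 CPM at 1.11 µM, against 37.3 to 160 CPM in DMSO with a median of 96.4 CPM. It fell by 1.52 ± 0.39 at 0.37 µM on the log2 scale (adjusted p = 0.00181), with 3 of 4 wells below the DMSO range, and its change at 1.11 µM was 0.72 ± 0.33 (adjusted p = 0.102). PDIA4 fell by 1.01 ± 0.27 at 0.37 µM on the log2 scale (adjusted p = 0.00256, and 0.0764 against DMSO column 2 alone) and rose by 1.18 ± 0.22 at 1.11 µM (adjusted p = 3.39e-05). PPIB, a proline isomerase that serves collagen, was not called at the 3 doses (log2 change -0.66, -0.47 and 0.21), although all 4 of its wells at 0.12 µM, at 97.5 to 106 CPM, lay below the DMSO range of 110 to 218 CPM.

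The lectin cycle holds glycoproteins until they fold. CALR (chr19:12938578-12944489), its soluble lectin and a calcium store, was the only member called at 0.04 µM; it was lower at 0.04, 0.12 and 0.37 µM and higher at 1.11 µM. It read 271, 206, 340 and 217 CPM at 0.04 µM, 205, 138, 254 and 156 CPM at 0.12 µM, 166, 298, 256 and 246 CPM at 0.37 µM and 567, 808, 759 and 886 CPM at 1.11 µM, against 239 to 607 CPM in DMSO with a median of 427 CPM. At 0.12 µM 3 of 4 wells lay below the DMSO range and at 1.11 µM 3 of 4 above it. CALR changed by -0.70 ± 0.17 at 0.04 µM (adjusted p = 0.0205), -1.16 ± 0.18 at 0.12 µM (adjusted p = 2.69e-06), -0.79 ± 0.18 at 0.37 µM (adjusted p = 0.000226) and 0.85 ± 0.15 at 1.11 µM (adjusted p = 1.15e-05). Leaving out replicate 1, 2 or 4 removed the call at 0.04 µM (adjusted p from 0.0839 to 0.29) as did DMSO column 2 alone (0.464), where the log2 change was -0.47. UGGT1, which marks unfolded glycoproteins for another round, read 29.7, 10.7, 12.3 and 15.5 CPM at 0.12 µM, 21.6, 25.5, 22.7 and 43.2 CPM at 0.37 µM and 18.6, 102, 13.5 and 85.6 CPM at 1.11 µM, against 7.55 to 47 CPM in DMSO with a median of 28.6 CPM. Its 4 wells at 1.11 µM were split, 2 above the DMSO range and 2 within it, and no change was called. CANX, the membrane-bound lectin, had log2 changes of 0.41, 0.43 and 0.58 at 0.12, 0.37 and 1.11 µM, none of them called.

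Of the 8 genes of degradation, 1 was higher and 2 lower at 0.37 µM, beside 11.2% and 13.6% of all genes. At 1.11 µM 6 were higher, beside 9.77% of all genes. At 0.12 µM the log2 changes of the 8 ran from -0.60 to 0.31, with adjusted p of 0.551 or more. HERPUD1, a membrane protein that gathers the degradation complex, read 89.9, 68.8, 111 and 86.2 CPM at 0.12 µM, 183, 249, 157 and 181 CPM at 0.37 µM and 191, 196, 193 and 209 CPM at 1.11 µM, against 69.5 to 153 CPM in DMSO with a median of 113 CPM. All 4 wells at 0.37 µM and all 4 at 1.11 µM lay above the DMSO range. HERPUD1 changed by 0.78 ± 0.24 at 0.37 µM on the log2 scale (adjusted p = 0.0104, and 0.106 without replicate 2) and 0.81 ± 0.25 at 1.11 µM (adjusted p = 0.00995, and 0.0519 against DMSO column 23 alone). EDEM2 (chr20:35115357-35147364), which takes part in the first mannose trimming that marks glycoproteins for disposal, read 42.8, 33.6, 32.1 and 33.7 CPM at 0.12 µM, 26.4, 11.9, 16.8 and 8.7 CPM at 0.37 µM and 105, 109, 58.9 and 51.7 CPM at 1.11 µM, against 15.3 to 67.5 CPM in DMSO with a median of 47.3 CPM. At 0.37 µM 2 of 4 wells lay below the DMSO range and at 1.11 µM 2 of 4 above it, with log2 changes of -1.47 ± 0.34 (adjusted p = 0.000477) and 0.88 ± 0.28 (adjusted p = 0.0172). The rise was lost without replicate 1 or 2 (adjusted p = 0.108 and 0.128) and against DMSO column 23 alone (0.106).

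SEL1L, the partner that steadies the ubiquitin ligase SYVN1, read 30.1, 0.3, 19.3 and 3.2 CPM at 0.12 µM, 8, 7.07, 15.9 and 12.3 CPM at 0.37 µM and 105, 35.8, 19.3 and 31.9 CPM at 1.11 µM, against 4.31 to 38.9 CPM in DMSO with a median of 14.6 CPM. Only 1 well at 1.11 µM lay above the DMSO range. Its rise of 1.60 ± 0.43 on the log2 scale (adjusted p = 0.00381) was 0.87 without that well, replicate 1 (adjusted p = 0.243). SYVN1 rose by 1.23 ± 0.42 at 1.11 µM (adjusted p = 0.024), a call lost without replicate 2 or 3 (adjusted p = 0.262 and 0.0683) and against DMSO column 23 alone (0.141). OS9, the lectin that brings trimmed glycoproteins to SEL1L, read 135, 83.5, 100 and 122 CPM at 1.11 µM, against 20.3 to 77.5 CPM in DMSO. Its rise there was 1.29 ± 0.27 on the log2 scale (adjusted p = 0.000187), and its fall of 0.93 ± 0.32 at 0.37 µM (adjusted p = 0.0241) was lost without replicate 1, 2 or 4 (adjusted p from 0.0664 to 0.138), with size factors (0.0969), by DESeq2 (0.0538) and against DMSO column 2 alone (0.364). DERL2, a rhomboid-like protein of the exit channel, rose by 1.29 ± 0.34 at 1.11 µM (adjusted p = 0.00303). Its relative DERL1 read 26.5, 21.9, 28 and 25.1 CPM at 0.12 µM, 29.3, 45.1, 47.9 and 61.3 CPM at 0.37 µM and 82.7, 38.8, 52.2 and 97.9 CPM at 1.11 µM, against 12.6 to 74.3 CPM in DMSO with a median of 38.2 CPM, and was called at none of these doses. EDEM1, a relative of EDEM2, was the only one of the 8 with a negative log2 change at 1.11 µM, -0.67 ± 0.32, which was not called (adjusted p = 0.121).

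Of 7 genes of the translocon, 1 rose at 0.12 µM, 2 rose at 0.37 µM and 3 rose at 1.11 µM. SSR3 (chr3:156540140-156555184), a subunit of the translocon-associated TRAP complex, was the only member called higher at 0.12 µM. It read 435, 391, 410 and 410 CPM at 0.12 µM, 714, 674, 733 and 691 CPM at 0.37 µM and 422, 352, 325 and 501 CPM at 1.11 µM, against 213 to 343 CPM in DMSO with a median of 277 CPM. All 4 wells at 0.12 µM and all 4 at 0.37 µM lay above the DMSO range. The log2 change was 0.59 ± 0.14 at 0.12 µM (adjusted p = 0.00458, and 0.0888 against DMSO column 2 alone), 1.36 ± 0.13 at 0.37 µM (adjusted p = 1.54e-14) and 0.55 ± 0.14 at 1.11 µM (adjusted p = 0.00216, and 0.061 without replicate 4). SEC61A1, the channel itself, read 92.1, 93.4, 139 and 96 CPM at 0.12 µM, 146, 173, 160 and 159 CPM at 0.37 µM and 392, 250, 362 and 188 CPM at 1.11 µM, against 69.6 to 169 CPM in DMSO with a median of 114 CPM. All 4 wells at 1.11 µM lay above the DMSO range, with a log2 change of 1.32 ± 0.18 (adjusted p = 1.64e-08), and the change of 0.42 ± 0.19 at 0.37 µM was called with size factors (adjusted p = 0.00461) and not with TMM (0.1). SEC61B, the small channel subunit, rose by 0.73 ± 0.16 at 0.37 µM (adjusted p = 0.000313), with all 4 wells at 942 to 1150 CPM above the DMSO range of 514 to 779 CPM, and had a log2 change of -0.03 at 1.11 µM. TRAM1, which helps nascent chains enter the channel, rose by 0.96 ± 0.22 at 1.11 µM (adjusted p = 0.000743). The TRAP subunits SSR1 and SSR2 and the channel partner SEC63 were not called at 0.12, 0.37 or 1.11 µM, with log2 changes from -0.40 to 0.84.

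XBP1 (chr22:28794555-28800597), the transcription factor, read 95.8, 64.1, 87.6 and 150 CPM at 0.12 µM, 272, 277, 248 and 258 CPM at 0.37 µM and 209, 131, 155 and 263 CPM at 1.11 µM, against 87.3 to 178 CPM in DMSO with a median of 130 CPM. All 4 wells at 0.37 µM lay above the DMSO range, and those at 1.11 µM overlapped it. The log2 change was -0.43 ± 0.18 at 0.12 µM (adjusted p = 0.287), 0.98 ± 0.16 at 0.37 µM (adjusted p = 8.53e-07) and 0.50 ± 0.17 at 1.11 µM (adjusted p = 0.024). The last was lost without replicate 1 or 4 (adjusted p = 0.0926 and 0.303) and against DMSO column 2 alone (0.116). Counts of 3′ ends do not separate the spliced from the unspliced mRNA.

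**Figure D3:**
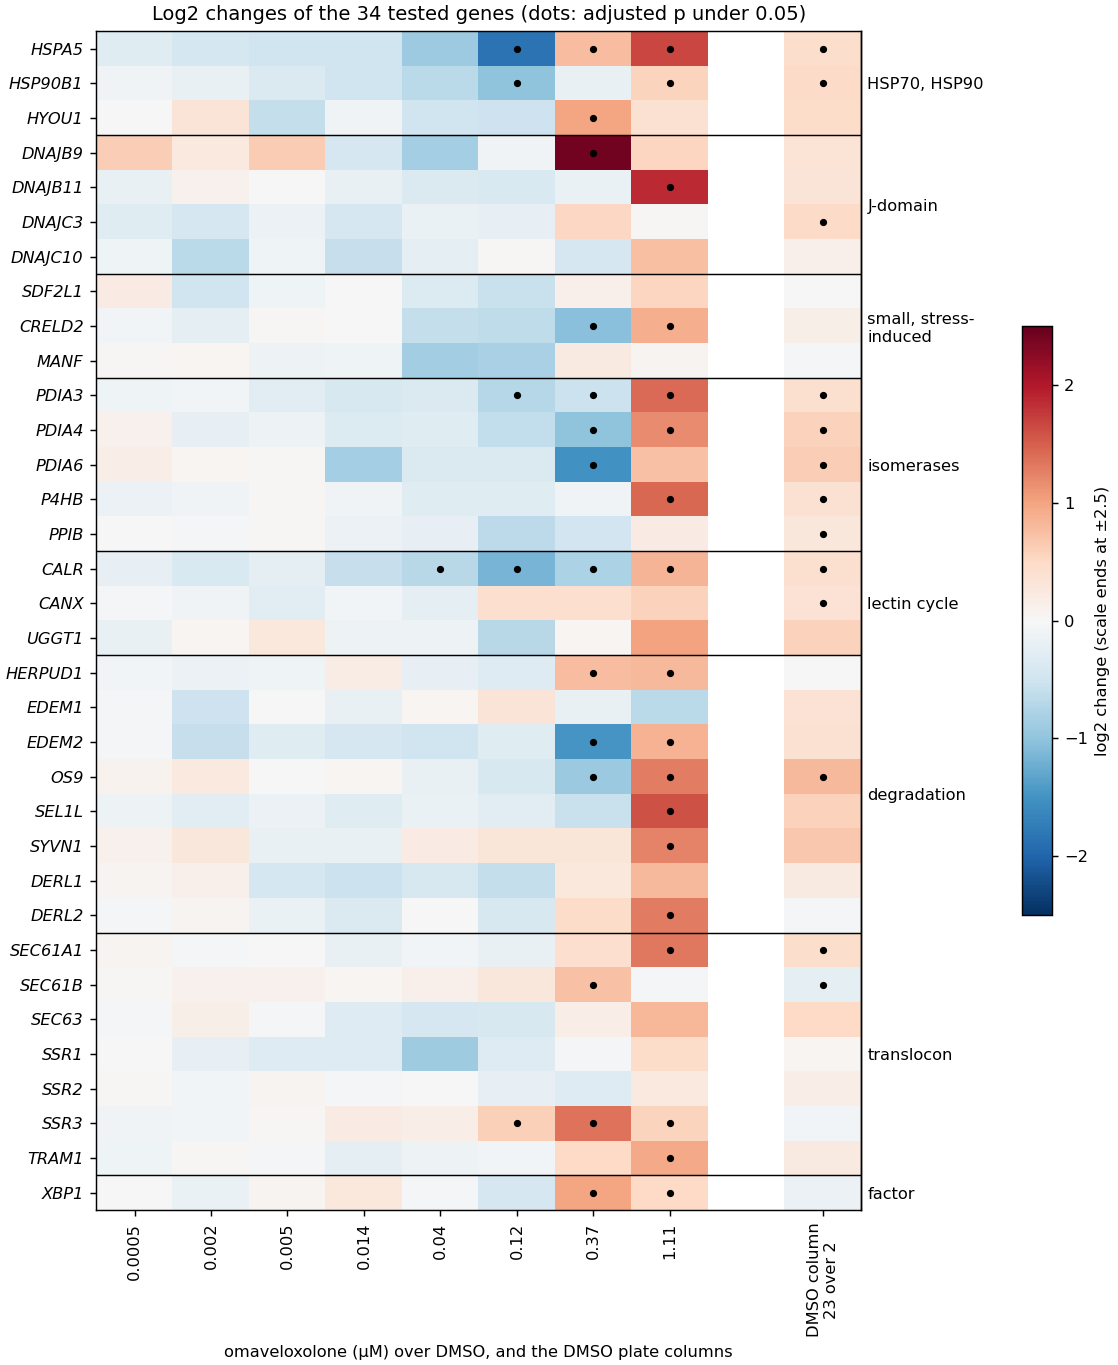
Log2 change of the 34 tested members, grouped by role, at the 8 doses from 0.0005 to 1.11 µM over DMSO and in DMSO wells of plate column 23 over column 2. Red is higher and blue lower, and dots mark an adjusted p under 0.05; the rows of PDIA3, PDIA4 and PDIA6 turn from blue at 0.37 µM to red at 1.11 µM, and SSR3 and XBP1 have their largest rise at 0.37 µM.

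Neighbouring doses were also compared directly, in the same fit. Between 0.12 and 0.04 µM, 0 of 34 members were called in either direction (1 higher and 2 lower at an unadjusted p under 0.05), where 0.00701% of all genes were called each way. Between 0.37 and 0.12 µM 7 members rose (HSPA5, HYOU1, DNAJB9, MANF, HERPUD1, SSR3 and XBP1) and 0 fell (2 at an unadjusted p under 0.05), against 2.52% and 5.6% of all genes. HSPA5 stood 6.05-fold higher at 0.37 than at 0.12 µM (log2 2.60 ± 0.36, adjusted p = 9.04e-08), and XBP1 2.65-fold higher (log2 1.41 ± 0.24, adjusted p = 8.19e-06). With size factors 10 rose and 0 fell at this step, the median of all genes lay 0.28 higher, and 62.2% of all called genes were higher, against 31.1% with TMM.

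Between 1.11 and 0.37 µM 14 members rose and 3 fell (DNAJB9, SEC61B and SSR3), against 12.1% and 13.4% of all genes. All 5 tested isomerases rose, by 0.68 to 2.24 on the log2 scale, with PDIA6 4.73-fold higher at 1.11 than at 0.37 µM (adjusted p = 0.000197). EDEM2 stood 5.08-fold higher (log2 2.35 ± 0.42, adjusted p = 1e-05), OS9 4.66-fold higher (adjusted p = 1.94e-05) and CALR 3.13-fold higher (adjusted p = 1.13e-08). DNAJB9 fell by 1.87 ± 0.71 on the log2 scale at this step (adjusted p = 0.0431) and SSR3 by 0.81 ± 0.20 (adjusted p = 0.000887). With size factors the median of all genes lay 0.20 lower at this step and 37% of called genes were higher, against 47.4% with TMM. The comparisons with 0.37 µM and with DMSO share wells, so they are not independent.

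At 3.33 and 10 µM few counts were left, 692 to 1059 and 85 to 209 per well over all members. At 3.33 µM 7 members were higher (PDIA3, PDIA4, P4HB, PPIB, OS9, SSR2 and SSR3) and 11 lower, against 7.35% and 32.9% of all genes, with a median log2 change of -0.47 where that of all genes was -2.32. P4HB read 597, 490, 562 and 733 CPM, all above the DMSO range (log2 change 1.08 ± 0.15, adjusted p = 7.13e-09), and SSR2 275, 248, 405 and 182 CPM, all above its DMSO range of 73.3 to 153 CPM (1.27 ± 0.17, adjusted p = 4.29e-09). XBP1 had 2 counts in the 4 wells at 3.33 µM, and its DMSO level was 47.8 times higher, with a counting interval of 13.2 to 395. DNAJB11 and EDEM1 had 0 counts at 3.33 µM, and against a floor of 3 counts over the 4 wells they were at least 6.41-fold and 11.5-fold lower than in DMSO. At 3.33 µM relative to 1.11 µM 1 member rose, SSR2, and 18 fell, against 7.13% and 27.6% of all genes.
At 10 µM 0 members were higher (1 at an unadjusted p under 0.05, 3 by DESeq2) and 21 lower, against 3.35% and 31.8% of all genes. With size factors 3 were higher and 9 lower, and 31.6% of all called genes were higher, against 9.5% with TMM. Of the 35 members 10 had 0 counts and 17 had at most 3 counts in the 4 wells, and the members' median log2 change was -2.0 as fitted and -1.68 with the genes at 0 set to their bound, where the fitted median of all genes was -5.51. With size factors the members' median was -1.14. Intervals and bounds cover counting error only. On average 2428 genes per well had any count at 10 µM and 4789 at 3.33 µM, against 13920 in DMSO. Many genes in the all-gene medians at these doses thus had few or 0 counts, and the bound was not applied to them. The part of level and depth in the gap between members and all genes was not tested.

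The DMSO wells differed across the plate in these same genes. Column 23 stood above column 2 in 12 of the 34 members and below it in 1, against 3.3% and 2.81% of the 11258 genes tested in the 32 DMSO wells, and 29 of 34 changes were positive. The median log2 difference was 0.36 over the members and -0.02 over all genes. HSPA5 read 146 to 315 CPM in column 23 with a median of 242 CPM, against 145 to 220 CPM in column 2 with a median of 166 CPM (log2 difference 0.44 ± 0.08, adjusted p = 0.000371). HSP90B1 averaged 607 ± 89.5 CPM in column 23 and 431 ± 67.4 CPM in column 2 (SD, n = 16 each; log2 difference 0.48 ± 0.08, adjusted p = 2.07e-05), and CALR 479 ± 64.8 CPM in column 23 and 359 ± 53 CPM in column 2 (0.40 ± 0.07, adjusted p = 8.31e-05). OS9 had the largest difference, 57.6 ± 11.2 CPM in column 23 and 32.5 ± 10.1 CPM in column 2 (0.81 ± 0.13, adjusted p = 2.87e-05). All 5 tested isomerases were higher in column 23, by 0.28 to 0.61, as were DNAJC3, CANX and SEC61A1. SEC61B was lower, at 597 ± 61 CPM in column 23 and 702 ± 55.4 CPM in column 2 (-0.25 ± 0.05, adjusted p = 0.000524). The 3 small lumenal proteins, HERPUD1 and XBP1 were not called, with log2 differences from -0.14 to 0.14. Of the 10 fibroblast markers, 7 were higher in column 23 and 1 lower, and their part in the difference was not tested.

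Set side by side, the log2 change at 0.12 µM and the column difference were -1.84 and 0.44 for HSPA5, -1.16 and 0.40 for CALR, -1.0 and 0.48 for HSP90B1 and -0.72 and 0.40 for PDIA3, while SSR3 had 0.59 and -0.07. Both sets of values use the DMSO wells. Against column 23 alone and column 2 alone, the change of HSPA5 at 0.12 µM was -2.05 and -1.60 (adjusted p = 2.49e-05 and 0.00122) and that of CALR -1.35 and -0.94 (adjusted p = 4.34e-07 and 0.000605). HSP90B1 changed by -1.24 and -0.74 (adjusted p = 0.00192 and 0.194) and PDIA3 by -0.92 and -0.50 (adjusted p = 0.000693 and 0.295). At 1.11 µM P4HB changed by 1.24 and 1.63 and PDIA3 by 1.21 and 1.63, called against either column. Against column 23 alone 13 members were higher at 1.11 µM, without HSP90B1, CRELD2, HERPUD1, EDEM2 and SYVN1, and against column 2 alone 20. At 0.37 µM 5 were higher and 7 lower against column 23 alone, and 9 and 3 against column 2 alone. With plate side as a term in the fit, all 38 calls made at 0.04 to 1.11 µM were kept. Each dose and DMSO were split evenly between the sides, so this term could hardly move a dose effect. It does not address the order of the doses along the columns or the rows used.

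**Figure D4:**
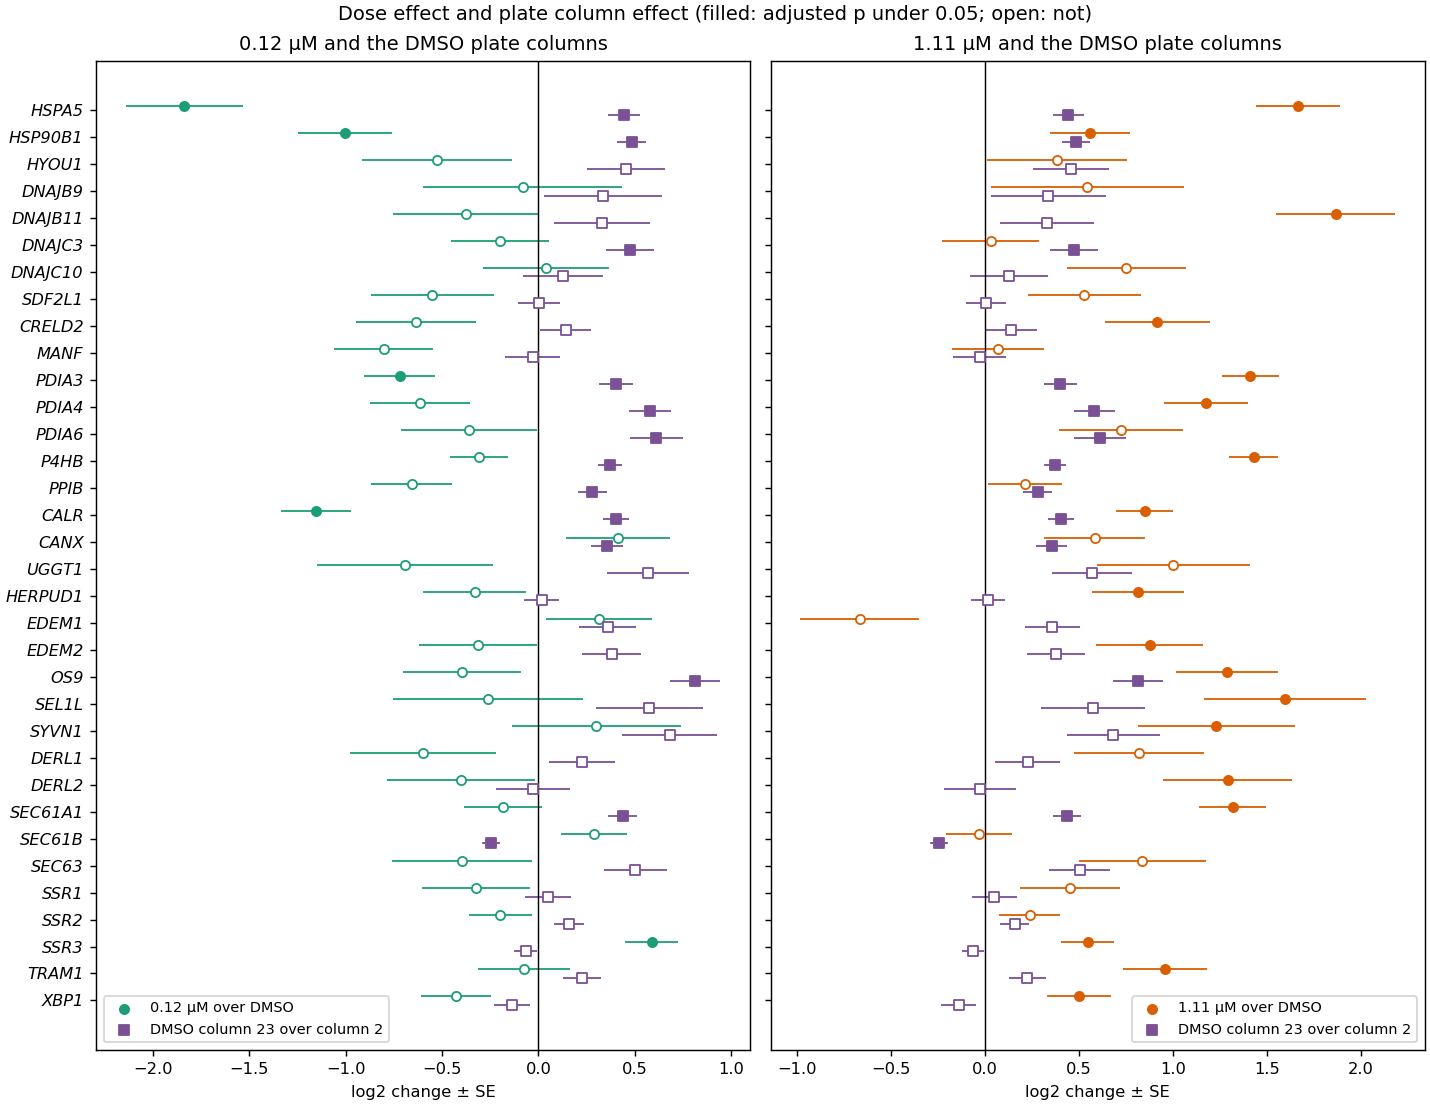
Log2 change with its SE of the 34 tested members at 0.12 µM (left panel, green circles) and 1.11 µM (right panel, orange circles) over DMSO, beside the difference of DMSO column 23 over column 2 (purple squares). Filled symbols have an adjusted p under 0.05; for HSPA5 the values are -1.84, 1.67 and 0.44.

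Treated wells gave a second view of the plate, since each dose had wells on both sides. Over the 28 wells at 0.0005 to 0.37 µM, with dose as a factor, right wells stood above left wells in 1 member, HSP90B1 (log2 difference 0.52 ± 0.11, adjusted p = 0.0133), and below them in 0 (2 at an unadjusted p under 0.05), against 0.72% and 0.352% of 13056 genes. The median over the members was 0.24, where that of all genes was 0.01. The differences ran from -0.73 to 0.72, and 25 of 34 were positive. CALR had a difference of 0.31 ± 0.09 (adjusted p = 0.0958) and HSPA5 of 0.29 ± 0.17 (adjusted p = 0.563). Of the fibroblast markers 5 of 10 were higher on the right.

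The 10 members with ERSE or ERSE-II in a promoter window, 5 of them shown above, were not of one direction. At 0.12 µM 3 of these 10 were lower (HSPA5, HSP90B1 and CALR) and 0 higher, beside 0 lower and 1 higher of the 21 tested members whose windows held neither. At 0.37 µM 4 were higher (HSPA5, HYOU1, HERPUD1 and XBP1) and 3 lower (CRELD2, PDIA6 and CALR), beside 3 higher and 3 lower of the 21. At 1.11 µM 6 of the 10 were higher and 10 of the 21. The 21 are not free of such elements, since SSR3 and DNAJC10 among them held the UPRE core. PDIA3, DERL1 and TRAM1 had no promoter entry and are in neither group. Of these, PDIA3 was lower at 0.12 and 0.37 µM, and PDIA3 and TRAM1 were higher at 1.11 µM. The median log2 changes of the 10 were -0.54, 0.27 and 0.65 at 0.12, 0.37 and 1.11 µM and those of the 21 were -0.31, -0.02 and 0.84.

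Other genes of the pathway, 84 in 6 lists, were looked at in the same fit, and 83 were tested. At 0.12 µM 0 were higher and 2 lower (FKBP7 and BBC3), at 0.37 µM 13 higher and 10 lower, and at 1.11 µM 27 higher and 4 lower. The shares at 0.37 µM, 15.7% and 12%, lay near the 11.2% and 13.6% of all genes, while those at 1.11 µM were 32.5% and 4.82%, against 9.77% and 13.2% of all genes. Between the DMSO columns 16 of the 82 tested there were higher in column 23 and 2 lower (19.5% and 2.44%), against 3.3% and 2.81% of all genes. Among 12 sensors and regulators of the unfolded protein response, 6 were higher and 2 lower at 0.37 µM, and 6 higher and 1 lower at 1.11 µM. DDIT3, the factor CHOP made under lasting stress, averaged 16.9 ± 2.41, 84.3 ± 29.1 and 631 ± 23.2 CPM at 0.12, 0.37 and 1.11 µM (SD, n = 4 each), against 29 ± 9.8 CPM in DMSO, with log2 changes of -0.78, 1.54 and 4.45 (adjusted p = 0.214, 2.72e-07 and 2.64e-31). PPP1R15A, which restores translation by directing a phosphatase to eIF2α, averaged 573 ± 72.8 and 1190 ± 204 CPM at 0.37 and 1.11 µM, against 111 ± 18.9 CPM in DMSO (log2 change 2.37 and 3.42, adjusted p = 1.95e-24 and 6.25e-36). MBTPS1, the protease that cuts ATF6 in the Golgi, fell at 0.37 µM (-0.83, adjusted p = 0.00202) and rose at 1.11 µM (0.92, adjusted p = 0.000131), and BBC3, a promoter of apoptosis, fell at both doses (-1.23 and -1.88, adjusted p = 0.000592 and 7.02e-06).

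Of 24 other folding enzymes, 0 were higher and 5 lower at 0.37 µM, and 10 higher and 0 lower at 1.11 µM. In DMSO, 9 of the 23 tested were higher in column 23 than in column 2, with a median log2 difference of 0.44. FKBP7, a proline isomerase, averaged 11.3 ± 6.74 CPM at 0.37 µM and 137 ± 55.5 CPM at 1.11 µM, against 57.7 ± 16.1 CPM in DMSO (log2 change -2.36 and 1.25, adjusted p = 6.47e-08 and 0.00014). FKBP14, another, fell by 1.76 at 0.37 µM on the log2 scale (adjusted p = 0.000515). Of the 14 tested genes among 15 others of degradation, 4 were higher and 1 lower at 0.37 µM. SELENOS, a selenoprotein of the exit complex, averaged 258 ± 36.7 CPM at 0.37 µM, against 104 ± 23.5 CPM in DMSO (1.32, adjusted p = 3.32e-08), AUP1, which recruits a ubiquitin-conjugating enzyme, rose by 1.27 (adjusted p = 1.94e-06), and MAN1B1, a mannosidase, fell by 1.31 (adjusted p = 0.00987). Of 16 other genes of targeting and translocation, 3 were higher and 1 lower at 0.37 µM, with the signal peptidase subunits SEC11C and SPCS3 higher by 1.52 and 1.28 (adjusted p = 1.03e-05 and 1.89e-07) and the TRAP subunit SSR4 lower (-0.32, adjusted p = 0.0399). The oligosaccharyltransferase, which attaches glycans to nascent chains, had 0 higher and 1 lower of 12 at 0.37 µM, its subunit DDOST, and 6 higher and 2 lower at 1.11 µM. DDOST averaged 134 ± 23.8 CPM at 0.37 µM and 575 ± 81.2 CPM at 1.11 µM, against 206 ± 41.4 CPM in DMSO (-0.61 and 1.48, adjusted p = 0.0101 and 4.43e-12). Of the 5 receptors of endoplasmic reticulum autophagy, 0 were called at 0.37 µM, and 1 was higher and 1 lower at 1.11 µM.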

How the data were processed

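The authors deposited whole-number counts per gene and well, without normalization; the submitters' processing notes name kallisto, bustools and GRCh38. Versions, the annotation and any collapsing of molecular identifiers are not given in the sources used here, so a count may be a read. DMSO labels mark 32 wells, all of them used here, although the protocol in the labels speaks of 16 per plate. Counts of 23170 genes were read, and 38 genes, those on chromosome Y and XIST, were left out before scaling. Symbols were mapped from the Ensembl identifiers of the deposited counts, and positions come from GENCODE release 29. edgeR 4.0.16 in R 4.3.3 (TMM, filterByExpr with a minimum count of 10, robust quasi-likelihood fit) tested all 72 wells together, and the 32 DMSO wells and the 28 treated wells in fits of their own. Adjusted p-values follow Benjamini and Hochberg over all genes tested, with a threshold of 0.05. Each SE was worked back from the test, as the absolute log2 change divided by the square root of its F statistic. The fits were also run on simulated counts that had the same dispersion for every gene and no plate effect. That run cannot tell how the fits behave with the plate differences seen here. The members, lists and named genes were chosen with earlier results of these data known: wells are given for 6 fixed members and, in each role, for the member with the largest change at 0.12, 0.37 and 1.11 µM; other pathway genes are the 2 largest rises and 2 largest falls per list at 0.37 µM among called genes with a mean of 10 CPM. Other size factors, DESeq2 1.42.0, no filter, other sets of DMSO wells, plate side, a replicate block and leaving out wells were tried. Counting intervals are exact 95% Poisson intervals of the dose's counts.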

Additional observations from a re-analysis of the deposited data

Results flagged for a closer look

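A search of the 19 members given well by well, at 0.12, 0.37 and 1.11 µM, covered 57 groups of 4 wells. In 3 of them the highest well lay far from the other 3, with a gap over the whole range above Dixon's critical value. Chance alone would give about 1 in 20, near the share found. All 3 were at 0.12 µM. PDIA3 read 286 CPM in replicate 3 and SEC61A1 139 CPM in the same replicate, a right-hand well. EDEM2 read 42.8 CPM in replicate 1, also a right-hand well. Without replicate 3 the call of PDIA3 at 0.12 µM was kept, but leaving out the highest well lowers the mean of a group already called lower. The call was lost without replicate 1, 2 or 4.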

How the results depend on the processing

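Of 38 member calls at 0.04 to 1.11 µM, 35 were kept with size factors, 35 by DESeq2 and 37 with no filter. With chromosome Y genes and XIST kept (added after seeing the data), 37 were kept. All 38 were kept with plate side as a term, with the dose and DMSO alone or without 3.33 and 10 µM. Against DMSO column 2 alone 29 were kept, against column 23 alone 31 and against DMSO of rows K and L 10. In these settings 0 calls reversed. Counts that moved over 1.5 times, as higher and lower, were these. At 0.014 µM column 23 gave 1 lower. At 0.04 µM, for 1 lower, rows K and L, column 2 and the replicate block gave 0, leaving out 3.33 and 10 µM 4, DESeq2 3 and the dose with DMSO alone 5. At 0.12 µM, for 1 and 4, rows K and L gave 0 and 0, column 2 0 and 2, the replicate block 0 and 2, DESeq2 7 lower, the dose alone 2 and 7, and leaving out 3.33 and 10 µM 2 higher. At 0.37 µM, for 7 and 7, size factors gave 4 lower, rows K and L 3 and 0, column 2 3 lower, the replicate block 2 and 2 and the dose alone 11 higher. At 1.11 µM, for 18 higher, rows K and L gave 7 and the replicate block 5. At 3.33 µM the replicate block gave 2 higher for 7. At 10 µM, for 0 and 21, size factors and DESeq2 gave 3 and 9 and column 2 1 higher. For 0.37 over 0.12 µM, leaving out 3.33 and 10 µM gave 11 higher and 2 lower. For right over left, doses up to 0.12 µM gave 2 higher, and no filter 2 and 1. Leaving out 1 replicate gave 0 to 1 lower at 0.04 µM, 2 to 4 lower at 0.12 µM, 4 to 7 higher and 4 to 7 lower at 0.37 µM, 14 to 17 higher and 0 to 1 lower at 1.11 µM, 4 to 7 higher at 3.33 µM and 0 to 1 higher at 10 µM. Replicate numbers did not pair the wells: deviations from group means correlated at -0.00909 on average over 112 same-numbered pairs and at 0.00313 over 336 others. The replicate block and rows K and L each used 4 DMSO wells, and 27 and 28 of the 38 calls were lost. The DMSO wells of the block lay in rows A and B, and replicate numbers lay on different sides of the plate at different doses. Fewer DMSO wells and their place on the plate cannot be told apart in these settings. The cause of these and the other moves was not tested. Depth limits 3.33 and 10 µM, where 7 and 17 of 35 members had at most 3 counts in 4 wells.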
